A study of Mus musculus with 6 samples.

Results

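Glucose enters a cell through hexose transporters, is trapped by a hexokinase and is committed to glycolysis by phosphofructokinase. The genes described here were 10 mouse genes of these steps, chosen by name: the transporters Slc2a1, Slc2a3 and Slc2a5, the hexokinases Hk1, Hk2 and Hk3, the isomerase Gpi1, and the phosphofructokinase subunits Pfkl, Pfkm and Pfkp. All 10 were among the 26789 genes listed, and all 10 were tested, as part of the 18007 genes whose mean over the 6 libraries reached 10 normalised counts. The libraries were RNA-seq of cells labelled microglia, the resident macrophages of the brain, from the rostral nucleus of the solitary tract (NST), the first brain relay for taste, of mice at postnatal day 15 (P15). The comparison asked how maternal diet was related to the transcripts of these cells. Controls (3 libraries) were the offspring of mothers on a control diet, and E3–E12 diet mice (3 libraries) were the offspring of mothers that received a low sodium diet from embryonic day 3 to 12 and standard chow afterwards. Each library held tissue pooled from littermates of a single litter, so the spread between libraries was that between pooled litters. The libraries are called control 1 to 3 and E3–E12 diet 1 to 3.

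The isoforms of these families differ between brain cell types. GLUT1, the product of Slc2a1, is the main glucose transporter of the blood–brain barrier endothelium, GLUT3 (Slc2a3) is the main one of neurons, and GLUT5 (Slc2a5) is a fructose transporter that in the brain is enriched in microglia. Hexokinase 1 is the widespread form of the brain, hexokinase 2 is an inducible form of muscle and of proliferating or activated cells, and hexokinase 3 is a form of myeloid cells. Phosphofructokinase is a tetramer of liver-type (Pfkl), muscle-type (Pfkm) and platelet-type (Pfkp) subunits. It carries out the committed step of glycolysis after Gpi1 has turned glucose 6-phosphate into fructose 6-phosphate.

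The promoters of Slc2a1, Slc2a5 and Hk3 are shown because the profiles of these genes over the libraries set apart the transporter of the endothelium from genes of microglia. Each stretch was read from the RefSeq promoter table of the build GRCm38.p6 on the strand of the gene, 5′ to 3′, and ends just before the first annotated base of the gene. It spans chr4:119108495-119108710 (+ strand) for Slc2a1, chr4:150119094-150119282 (+ strand) for Slc2a5 and chr13:55021386-55021635 (− strand) for Hk3. Capitals mark the core of the hypoxia response element, ACGTG or GCGTG on either strand.
Slc2a1: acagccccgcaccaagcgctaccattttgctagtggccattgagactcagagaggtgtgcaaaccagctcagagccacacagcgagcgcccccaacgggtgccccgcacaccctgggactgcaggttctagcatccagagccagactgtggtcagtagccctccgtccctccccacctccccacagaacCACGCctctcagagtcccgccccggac
Slc2a5: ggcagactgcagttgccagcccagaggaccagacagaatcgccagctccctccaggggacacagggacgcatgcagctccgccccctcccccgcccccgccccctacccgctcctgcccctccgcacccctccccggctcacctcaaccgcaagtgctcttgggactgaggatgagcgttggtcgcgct
Hk3: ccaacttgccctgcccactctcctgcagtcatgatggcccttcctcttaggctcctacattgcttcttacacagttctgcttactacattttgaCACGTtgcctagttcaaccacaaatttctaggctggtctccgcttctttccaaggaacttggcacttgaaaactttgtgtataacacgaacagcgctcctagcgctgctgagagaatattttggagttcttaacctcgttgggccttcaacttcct
The core was in the printed stretch of Slc2a1 and of Hk3 and not in that of Slc2a5. In the 250 bases before the start, the table held 9 of the 10 genes. Slc2a1 had 2 cores, 61 and 36 bases before its RefSeq start, and Hk3 had 1, at 156 bases. The Slc2a1 core at 36 bases runs past the end of the printed stretch and is not marked there. Hk1, Hk2, Pfkl, Pfkm and Pfkp also had at least 1 core before at least 1 of their starts. Gpi1 and Slc2a5 had none. Of all 32851 annotated mouse starts, 38.6% had at least 1 core in a window of this length, so its presence is common. The PU.1 box GAGGAAGT, the site of a factor of myeloid cells, was in 2.44% of all windows and in none of those of the members.

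The 6 libraries held between 9407141 and 17204618 normalised counts, and between 3459 and 10640 of the listed genes were at 0 in a library, with both maxima in control 2. The 12 microglia markers were above 0 in every library, with a summed level of 106120 to 529820 normalised counts in controls and 104710 to 326200 in E3–E12 diet mice. Markers of other cells were also present. Among these, the widest ranges of summed counts were those of oligodendrocytes (5314 to 45345 over the 10 markers in controls and 6145 to 25422 in E3–E12 diet mice) and of the choroid plexus and ependyma (586 to 19194 and 95.1 to 40894 over 8 markers, with Folr1, Clic6, Aqp1 and Otx2 at 0 in at least 1 library). The 6 erythroid markers had low sums that also varied, 12.7 to 220 in controls and 22.0 to 95.5 in E3–E12 diet mice. Of these, Hba-a1, Hba-a2, Hbb-bt, Alas2 and Slc4a1 were at 0 in at least 1 library. The 12 endothelial markers summed to 5690 to 17798 in controls and 11185 to 21050 in E3–E12 diet mice, with the lowest value in control 2, where Ly6c1 was at 0. The 12 neuron markers summed to 1552 to 3827 and 1976 to 4171, and of these Rbfox3, Syt1, Stmn2 and Slc17a6 were at 0 in at least 1 library. The 10 pericyte and fibroblast markers summed to 3204 to 17280 in controls and 7444 to 19398 in E3–E12 diet mice, with Kcnj8 at 0 in at least 1 library. The 9 neutrophil and monocyte markers summed to 528 to 3624 in controls and 764 to 857 in E3–E12 diet mice. Their highest sum was in control 2, and Ly6g and Plac8 were at 0 in at least 1 library. In bulk libraries such as these, fewer cells of a type and less RNA per cell cannot be told apart.

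No difference between the groups passed the test for any of the 10 genes. By limma with Benjamini-Hochberg adjustment over all genes tested, 0 of 10 passed the adjusted p of 0.1, as did 0 of 18007 genes (0%), and each member had an adjusted p of 0.999. At an unadjusted p under 0.05 there were 0 of 10 members against 327 of 18007 genes (1.82%). The libraries of the 2 groups overlapped for every member, whereas among all genes tested the lowest diet library exceeded the highest control in 2.99%, and the highest diet library was under the lowest control in 2.91%. The log2 fold change, E3–E12 diet minus control, was above 0 for 5 members and below 0 for 5, with a median of 0.21 against 0.09 over all genes tested. Over all genes tested, 54.4% were above 0. Without control 2 the median over the members was −0.15 and that over all genes −0.005. The median standard error of a gene was 0.85 on the log2 scale, and an exact permutation test of a single gene with 3 against 3 libraries cannot go below 0.1.

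**Figure D1:**
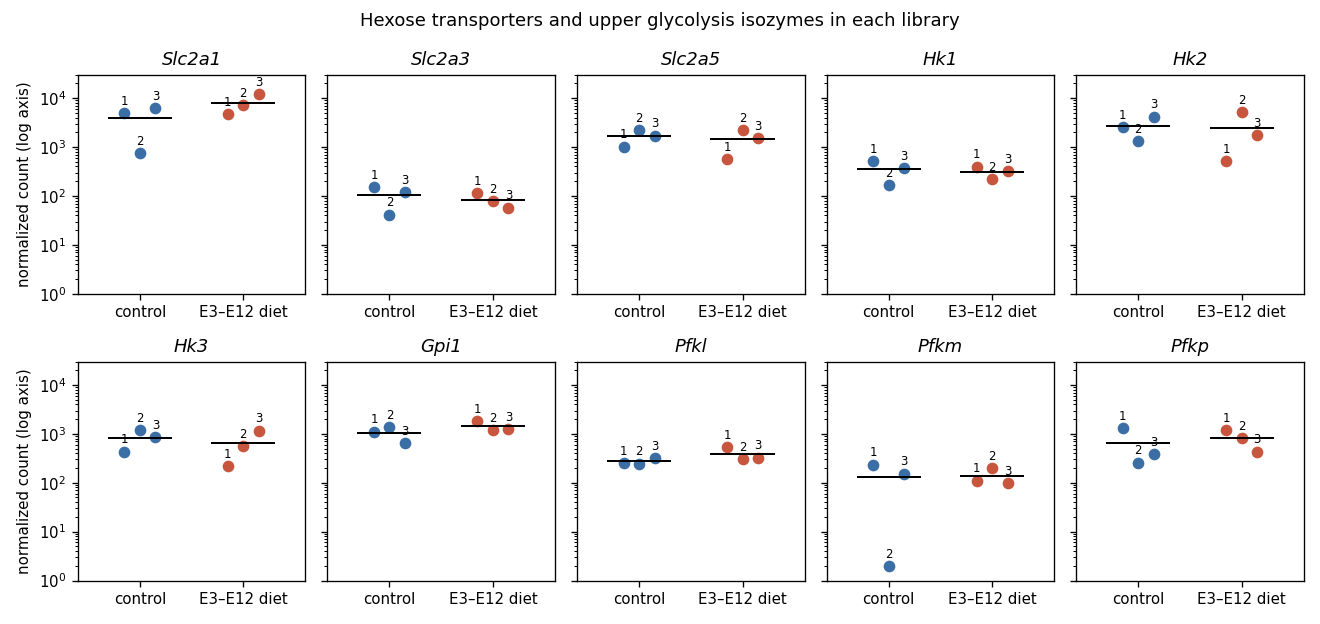
Normalised counts of the 10 genes in each library, on a log axis, with controls in blue and E3–E12 diet libraries in red, numbered by library, and a line at each group mean. The groups overlap for every gene, and control 2 is the lowest point for Slc2a1, Slc2a3, Hk1, Pfkl, Pfkm and Pfkp.

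Slc2a1 was the most abundant transporter transcript in 5 of the 6 libraries. Its gene lies at chr4:119108711-119137983 (+ strand) of GRCm38. It had 4982.5, 744 and 6177 normalised counts in controls 1, 2 and 3 and 4664, 7208 and 11954 in E3–E12 diet libraries 1, 2 and 3. Control 2 was far below every other library, E3–E12 diet 3 was the highest, and E3–E12 diet 1 lay between the controls. The means were 3968 ± 2855 in controls and 7942 ± 3699.9 in E3–E12 diet mice (SD, n = 3), and the log2 fold change was 1.38 ± 0.96 (SE, exact permutation p = 0.3). Without control 2, the library with the most genes at 0, it was 0.41. Slc2a1 is among the genes that the study itself listed from these libraries, so its direction is not independent evidence.

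Slc2a1 and the mean log2 level of the endothelial markers shared their lowest library, control 2, where the list stood at 6.12. Outside control 2 their orders differed. E3–E12 diet 2 was then lowest for the list, at 9.36, but only E3–E12 diet 3 was higher for Slc2a1. Of the 12 endothelial markers, 8 had a log2 fold change above 0 and 4 below, with a median log2 fold change of 1.36, and none passed the test. The share above 0 over all genes tested was 54.4%. The endothelial list was itself mixed in control 2, where Cldn5 and Pecam1 had their highest values, 1207 and 3154 normalised counts, while Flt1 and Vwf had their lowest, 95.4 and 26.3. Measured against the mean log2 level of the endothelial list in the same library, Slc2a1 stood 2.75 ± 0.66 above it in controls and 3.02 ± 0.75 above it in E3–E12 diet mice (SD, n = 3). The difference on this scale was 0.27 (exact permutation p = 0.5), against 1.38 without that reference. Both values include control 2. Against the list, Slc2a1 stood at 2.09, 3.42 and 2.73 in controls and 2.15, 3.46 and 3.43 in E3–E12 diet libraries. Control 2 was thus the highest control on this scale, and controls 1 and 3 lay below the diet mean of 3.02. Without control 2 the log2 fold change without the reference was 0.41. Relative to the microglia markers the difference of Slc2a1 was 1.65 (exact permutation p = 0.3). The mean log2 level of the list was 8.73 ± 2.26 in controls and 9.83 ± 0.41 in E3–E12 diet mice (SD, n = 3, exact permutation p = 0.7).

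Slc2a5, the fructose transporter, lies on the same chromosome at chr4:150119283-150144169 (+ strand). It had 1022, 2220.1 and 1703 normalised counts in controls 1, 2 and 3 and 566, 2216 and 1541 in E3–E12 diet libraries. It was highest in control 2, where Slc2a1 was lowest, and lowest in E3–E12 diet 1. The means were 1648 ± 601 and 1441 ± 829.6, and the log2 fold change was −0.33 ± 0.73 (SE, exact permutation p = 0.6), or 0.24 without E3–E12 diet 1. Relative to the mean log2 level of the microglia markers, the difference was −0.06 (exact permutation p = 0.9). All 12 microglia markers had lower means on the log2 scale in E3–E12 diet mice, as did 8210 of all 18007 genes tested. Their median log2 fold change was −0.28, Cx3cr1 and Aif1 differed by only −0.005 and −0.004, and none of the 12 passed the test. The mean log2 level of the list was 13.1 ± 1.10 in controls and 12.9 ± 0.98 in E3–E12 diet mice. By library it was 11.92, 14.05 and 13.47 in controls and 11.80, 13.12 and 13.71 in E3–E12 diet mice. Control 2 was the highest, so the direction of the list leans on that library.

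Slc2a3, the neuronal glucose transporter, was the least abundant of the transporters and lies at chr6:122727809-122801640 (− strand). It had 150.5, 41.5 and 118 normalised counts in controls and 112, 79.2 and 57.7 in E3–E12 diet libraries. Both extremes were controls. The log2 fold change was −0.17 ± 0.71 (SE, exact permutation p = 0.8). Against the endothelial list it was lower in all E3–E12 diet libraries than in any control, with a difference of −1.28 (exact permutation p = 0.1, the smallest this design allows). It stood at −2.95, −0.71 and −2.97 in controls and −3.21, −3.03 and −4.24 in E3–E12 diet libraries. Control 2, where the list was lowest, thus stood apart, and controls 1 and 3 lay close to E3–E12 diet 1 and 2. On that scale 2 of the 10 members, Slc2a3 and Hk1, lay entirely below the controls, as did 3.34% of all genes tested. There, 0 members lay entirely above the controls, against 0.794% of genes. Relative to the microglia list, 0 members lay entirely above or below the controls, against 0.9% and 0.861% of genes. Against the microglia list its difference was 0.10 (exact permutation p = 1).

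Shares within a library do not change when all its values are multiplied by the same factor. Whether the processing by the authors also shifted genes separately is not stated. Per kb of the longest coding transcript, Slc2a1 made up 80.9%, 24.2% and 76.9% of the 3 transporters in controls and 87.3%, 75.4% and 87.9% in E3–E12 diet libraries. Slc2a5 took most of the remainder, with 17.1%, 74.6% and 21.9% in controls and 10.9%, 23.9% and 11.7% in E3–E12 diet libraries. Control 2 was therefore the only library in which Slc2a5 was the main transporter. The share of Slc2a1 averaged 60.7% ± 31.6 in controls and 83.6% ± 7.08 in E3–E12 diet mice (SD, n = 3), a difference of 22.9 percentage points (exact permutation p = 0.3), and without control 2 the difference was 4.67 points. The share of Slc2a5 averaged 37.9% ± 31.9 and 15.5% ± 7.29, a difference of −22.4 points (exact permutation p = 0.3) and of −3.98 points without control 2. Slc2a3 was between 0.35% and 2.01% in every library.

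**Figure D2:**
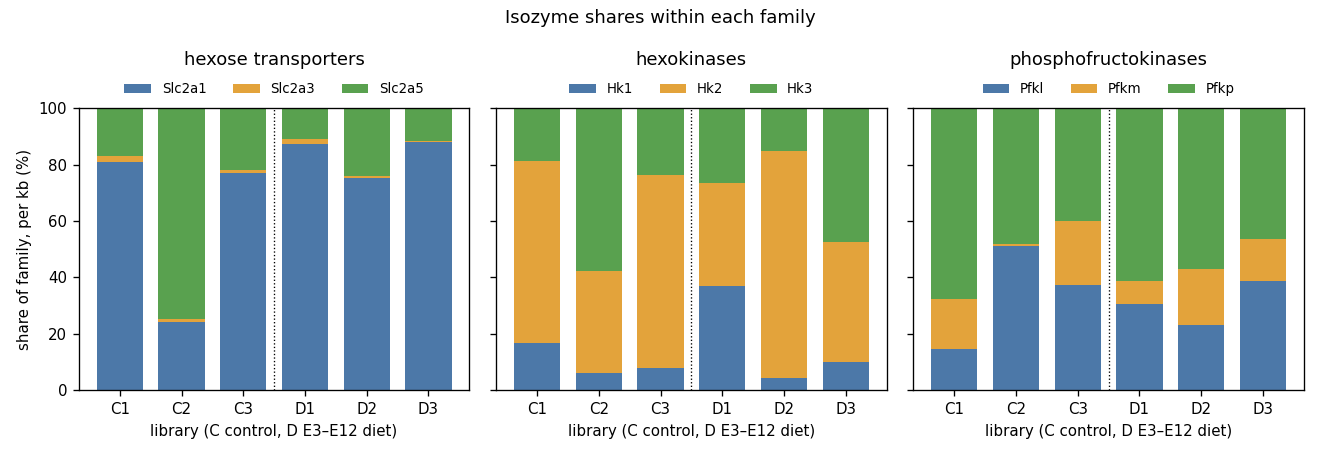
Percent of each isoform within its family, per kb of the longest coding transcript, in each library (C1 to C3 control, D1 to D3 E3–E12 diet). Slc2a1 is the largest part of the transporters except in control 2, the leading hexokinase at this length differs between libraries, and Pfkp is the largest phosphofructokinase in 5 of 6 libraries.

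Among the hexokinases, which form led depended on the library and on the length used. Hk2 lies at chr6:82725025-82774454 (− strand). It had 2526, 1304 and 4185 normalised counts in controls and 513, 5103 and 1774 in E3–E12 diet libraries. E3–E12 diet libraries 1 and 2 were the lowest and highest of all 6, a ratio of 9.95. The means were 2672 ± 1446 and 2463 ± 2372, and the log2 fold change was −0.52 ± 0.98 (SE, exact permutation p = 0.7), or 0.33 without E3–E12 diet 1.

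Hk3, the myeloid form, lies at chr13:55005985-55021385 (− strand). It had 430.25, 1204 and 845 normalised counts in controls and 217, 561 and 1156 in E3–E12 diet libraries. Like Slc2a5 it was highest in control 2 and lowest in E3–E12 diet 1. The log2 fold change was −0.55 ± 0.82 (SE, exact permutation p = 0.6), or 0.08 without E3–E12 diet 1. Relative to the microglia markers the difference was −0.27 (exact permutation p = 0.4). The neutrophil and monocyte markers also had their highest sum in control 2, 3624 normalised counts, and their part in the level of Hk3 was not tested.

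Hk1, the widespread form, lies at chr10:62268855-62379908 (− strand) and shares sequence with its antisense neighbour Hk1os over 1.22% of its 50-base windows. It had 507, 168 and 368 normalised counts in controls and 399.7, 222 and 325 in E3–E12 diet libraries. The diet libraries lay within the range of the controls, and the log2 fold change was −0.04 ± 0.66 (SE, exact permutation p = 1). Against the endothelial list it was lower in all E3–E12 diet libraries, as for Slc2a3, with a difference of −1.15 (exact permutation p = 0.1). It stood at −1.20, 1.28 and −1.34 in controls and −1.39, −1.56 and −1.76 in E3–E12 diet libraries, so control 2 again stood apart.

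Per kb, Hk2 made up 64.5%, 36.4% and 68.5% of the hexokinases in controls and 36.7%, 80.4% and 42.5% in E3–E12 diet libraries. Hk3 made up 18.8%, 57.6% and 23.7% in controls and 26.5%, 15.1% and 47.4% in E3–E12 diet libraries. Hk2 was the largest in 3 libraries, Hk3 in 2 and Hk1 in 1, E3–E12 diet 1, where Hk1 reached 36.8% against 36.7% for Hk2. Per kb of all annotated exons Hk2 led in 4 libraries, E3–E12 diet 1 included, and Hk3 in 2, and without division by length Hk2 led in all 6. The mean share of Hk2 was 56.5% ± 17.5 in controls and 53.2% ± 23.7 in E3–E12 diet mice (SD, n = 3, exact permutation p = 1). That of Hk1 was 10.2% ± 5.71 and 17.1% ± 17.3 (exact permutation p = 0.7), and that of Hk3 was 33.4% ± 21.1 and 29.7% ± 16.4 (exact permutation p = 0.7). The differences of Hk2 and Hk3 were smaller than the SD of either group, and that of Hk1 was larger than the SD of the controls and smaller than that of the diet group.

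Gpi1, the isomerase between the hexokinases and phosphofructokinase, lies at chr7:34201330-34230336 (− strand). It had 1100.1, 1348 and 647 normalised counts in controls and 1839, 1198 and 1244 in E3–E12 diet libraries. The lowest library was a control and the highest an E3–E12 diet library, but control 2 exceeded 2 of the 3 diet libraries. The log2 fold change was 0.50 ± 0.59 (SE, exact permutation p = 0.3). Relative to the endothelial list the difference was −0.60 (exact permutation p = 1). On that scale it stood at −0.085, 4.28 and −0.53 in controls and 0.81, 0.87 and 0.17 in E3–E12 diet libraries. Control 2 thus stood apart, and controls 1 and 3 lay below every diet library. Relative to the microglia list the difference was 0.77 (exact permutation p = 0.5). A total of 15.8% of its 50-base windows also occurred in other annotated genes, so its level depends on how shared reads were counted.

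The liver-type subunit Pfkl was the steadiest member across libraries, with a ratio of highest to lowest of 2.17. It lies at chr10:77986947-78010083 (− strand). It had 255, 246 and 320.4 normalised counts in controls and 534, 303 and 323 in E3–E12 diet libraries. E3–E12 diet 1 stood well above all controls, E3–E12 diet 3 just above the highest of them, and E3–E12 diet 2 within their range. The means were 274 ± 40.6 and 387 ± 128, and the log2 fold change was 0.46 ± 0.56 (SE, exact permutation p = 0.2), or 0.20 without E3–E12 diet 1. Relative to the endothelial list the difference was −0.65 (exact permutation p = 0.9). On that scale it stood at −2.19, 1.83 and −1.54 in controls and −0.97, −1.11 and −1.77 in E3–E12 diet libraries, so control 2 stood apart. Relative to the microglia list the difference was 0.73 (exact permutation p = 0.6).

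The platelet-type subunit Pfkp lies at chr13:6579768-6648777 (− strand). It had 1300, 257 and 382 normalised counts in controls and 1180.1, 825 and 429.5 in E3–E12 diet libraries. The first library of each group was high, and control 2 was the lowest. The log2 fold change was 0.57 ± 0.82 (SE, exact permutation p = 0.5), or 0.09 without control 2. The mean profile of the 12 neuron markers lay near that of Pfkp, although the list was mixed in control 2, where Map2, Nefm and Gad1 had their highest values, 1486, 380 and 493 normalised counts, and Rbfox3, Syt1 and Stmn2 were at 0. On the log2 scale 7 of these markers had a higher mean in the diet group and 5 a lower one. Their part in the level of Pfkp was not tested.

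The muscle-type subunit Pfkm lies at chr15:98092589-98132451 (+ strand). It had 234, 1.997 and 153 normalised counts in controls and 109, 198 and 97.1 in E3–E12 diet libraries. Control 2 alone was near 0, and the other controls lay around the diet libraries. The means were 130 ± 118 and 135 ± 54.9, while the log2 fold change, in which a single low library weighs more, was 1.44 ± 1.66 (SE, exact permutation p = 0.9). Without control 2 it was −0.56. Of its 50-base windows, 8.83% also lie in Gm26513.

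Per kb, Pfkp made up 67.7%, 48.2% and 39.9% of phosphofructokinase transcripts in controls and 61.1%, 57.0% and 46.3% in E3–E12 diet libraries. Pfkl made up 14.8%, 51.2% and 37.1% in controls and 30.7%, 23.3% and 38.7% in E3–E12 diet libraries. Pfkp was the largest in every library but control 2, where Pfkl was. The mean share of Pfkl was 34.4% ± 18.4 in controls and 30.9% ± 7.69 in E3–E12 diet mice (SD, n = 3), a difference of −3.48 percentage points (exact permutation p = 0.9). The mean share of Pfkp was 51.9% ± 14.3 and 54.8% ± 7.67 (exact permutation p = 0.9). When the length of all annotated exons was used in place of the longest coding transcript, Pfkp and Pfkl each led in 3 libraries.

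**Figure D3:**
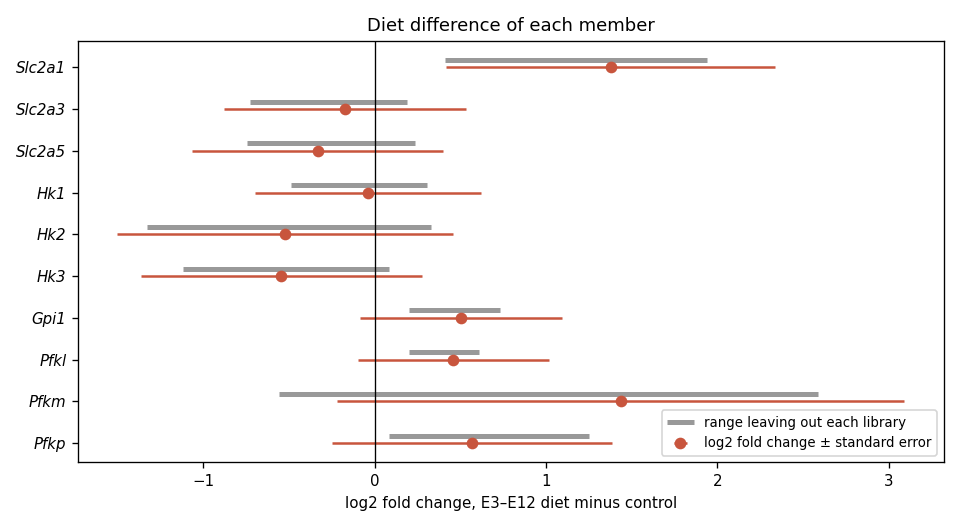
Log2 fold change (E3–E12 diet minus control) of the 10 genes with its standard error, as red points and bars, with grey bars for the range when each library is left out in turn. All standard error bars but that of Slc2a1 include 0, and the grey bar of Slc2a1 starts at 0.41, its value without control 2.

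Ordered by level per kb over the 6 libraries, Slc2a1 stood highest with 1827 ± 1126 normalised counts per kb (SD, n = 6). Slc2a5 (489 ± 208), Hk2 (466 ± 319) and Gpi1 (426 ± 134) followed, then Hk3 (228 ± 124) and Pfkp (176 ± 106). Pfkl (88.6 ± 28.1), Hk1 (77.5 ± 28.7), Pfkm (45.9 ± 28.6) and Slc2a3 (23.5 ± 10.3) were the lowest. None of the 9 neighbouring pairs in this order differed by more than the spread of their log2 difference over libraries. Of the 36 pairs that were not neighbours, 24 kept the same order in every library and the other 12 did not. Slc2a5 exceeded Hk3 by 1.18 ± 0.52 on the log2 scale (SD, n = 6), Gpi1 exceeded Pfkl by 2.24 ± 0.48, and Hk1 exceeded Slc2a3 by 1.71 ± 0.34. Among 17869 genes with a length, Slc2a1 was at percentile 98.5 or higher in every library but control 2, where it was at 78.2. Slc2a3 was between percentiles 28.6 and 40.1 throughout.

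The profiles of the members over the 6 libraries, each taken as log2 levels centred on the gene's own mean, fell near different cell type marker lists. Closeness was measured as the root mean square difference to the mean profile of a list, and it is a description over 6 libraries that share depth and composition. Slc2a1 was nearest to the endothelial list, at 0.59, and 2.30% of all genes tested were closer. Slc2a5 and Hk3 were nearest to the microglia list, at 0.45 and 0.29, with 541 and 96 of the 18007 genes closer. When the mean microglia profile was subtracted, the SD of Hk3 over the libraries went from 0.95 to 0.32 on the log2 scale, and that of Slc2a5 from 0.76 to 0.49.

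Pfkp was nearest to the neuron list, at 0.24, with 14 genes closer, and its SD went from 0.95 to 0.27 when that profile was subtracted. Slc2a3 and Hk1 were nearest to the pericyte and fibroblast list, at 0.46 and 0.47, and Slc2a3 was at 0.53 from the neuron list. Hk2 followed none of the lists. Its nearest was the microglia list, at 1.16, with 40.7% of genes closer, and its SD went from 1.21 to 1.26 when that profile was subtracted. Pfkm was nearest to the endothelial list, at 0.91, Pfkl to the pericyte and fibroblast list, at 0.76, and Gpi1 to the neutrophil and monocyte list, at 0.74, all at larger distances. Between members, Slc2a3 and Hk1 were the closest pair, at 0.32, followed by Gpi1 and Pfkl, at 0.44, and Slc2a5 and Hk3, at 0.48.

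**Figure D4:**
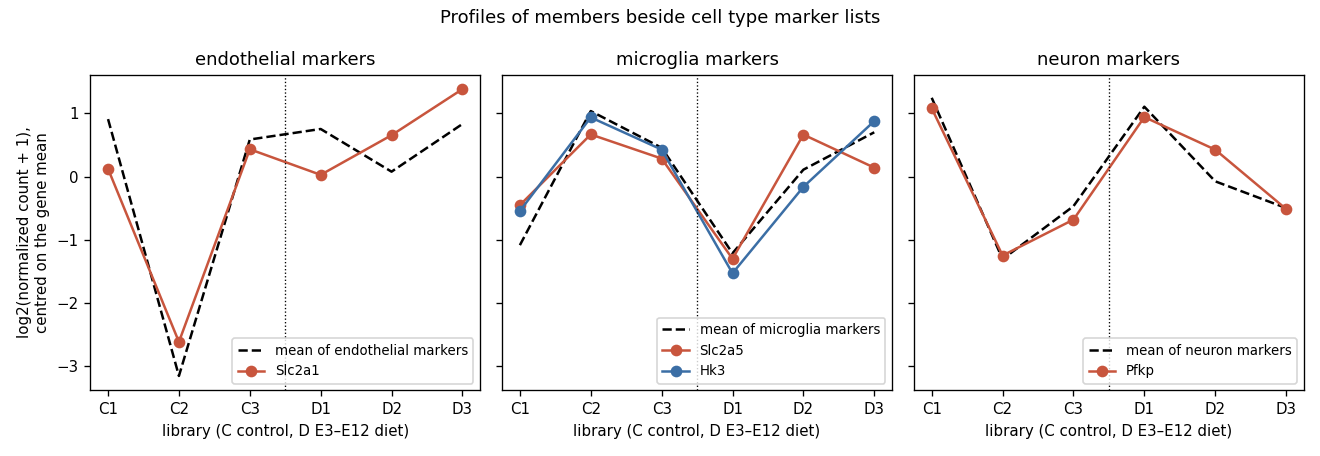
Centred log2 levels of members (coloured points and lines) and mean centred profiles of marker lists (dashed black lines) over the 6 libraries (C1 to C3 control, D1 to D3 E3–E12 diet). Slc2a1 shares the low value of the endothelial list in control 2, Slc2a5 and Hk3 share the low values of the microglia list in control 1 and E3–E12 diet 1, and Pfkp follows the neuron list.

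Outside the lists, the genes with the profile most like that of Slc2a1 among 17705 compared were Atp10a, Dap and Rab20, at 0.11, 0.17 and 0.19. Atp10a, a phospholipid-transporting ATPase, had 565, 69.8 and 616 normalised counts in controls and 428, 637 and 1195 in E3–E12 diet libraries, with control 2 lowest and E3–E12 diet 3 highest as for Slc2a1. The genes most like Slc2a5 were Tmem104, Rapgef5 and Mertk, at 0.06, 0.12 and 0.14. Mertk, a receptor for phagocytosis on macrophages and microglia, had 4952, 10297 and 8039 normalised counts in controls and 3107, 8883 and 8112 in E3–E12 diet libraries. It shared the low values of Slc2a5 in control 1 and E3–E12 diet 1.

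The genes around these steps were read from 5 further lists, and 0 genes of any list passed the adjusted p. For comparison, 54.4% of all genes tested had a log2 fold change above 0, with a median of 0.09. That median was −0.005 without control 2, and the lists were not read without that library. Of 10 other hexose transporters tested, 8 had a log2 fold change above 0 and 2 below, and 1, Rsc1a1, had an unadjusted p under 0.05. Rsc1a1, a regulator of the sodium-glucose cotransporter, was listed at 0 in every control and in E3–E12 diet 1 and at 74.8 and 141 normalised counts in E3–E12 diet 2 and 3, so no fold is given. Its limma p was 0.0456, its limma adjusted p was 0.999, and the exact permutation p was 0.4. Without it the other genes of the list had a median log2 fold change of 0.68. Of 8 other enzymes and regulators of upper glycolysis, such as Pfkfb3, 5 had a log2 fold change above 0 and 3 below, with a median of 0.19. Of 16 genes of the branches at glucose 6-phosphate and fructose, which feed the pentose phosphate pathway, glycogen and fructose metabolism, 9 were above 0 and 7 below on this scale, with a median of 0.25.

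Of 18 lower glycolysis and lactate genes, 14 had a log2 fold change above 0 and 4 below, with a median of 0.46, none of them at an unadjusted p under 0.05. Over all genes tested, 54.4% were above 0. Aldoc, the brain form of aldolase, had 236, 7.17 and 203 normalised counts in controls and 607, 486 and 516 in E3–E12 diet libraries. These groups did not overlap, and the log2 fold change was 2.87 ± 1.33 (SE, exact permutation p = 0.1, limma adjusted p = 0.999). Astrocytes are a main source of Aldoc in the brain, and of the 10 astrocyte markers 8 had a log2 fold change above 0 and 2 below, with a median of 0.76. They summed to 2359 to 9334 normalised counts in controls and 4633 to 10238 in E3–E12 diet mice, Gfap, Aldh1l1 and Gjb6 were at 0 in at least 1 library, and their part in the level of Aldoc was not tested. Eno1, an enolase, had 3871, 595 and 2511 normalised counts in controls and 2385, 3243 and 6100.1 in E3–E12 diet libraries, which overlapped (1.01 ± 0.87). Control 2 was the lowest library for both, as it was for Slc2a1. The study listed Aldoc, Eno1 and Rsc1a1, like Slc2a1, as upregulated in these libraries at a DESeq2 adjusted p under 0.1. None of them passed the adjusted p by limma here, and their direction is not independent evidence. Of 18 regulators of glucose uptake and glycolysis genes, such as Hif1a and Myc, 9 were above 0 and 9 below on the same scale, with a median of −0.01.

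**Figure D5:**
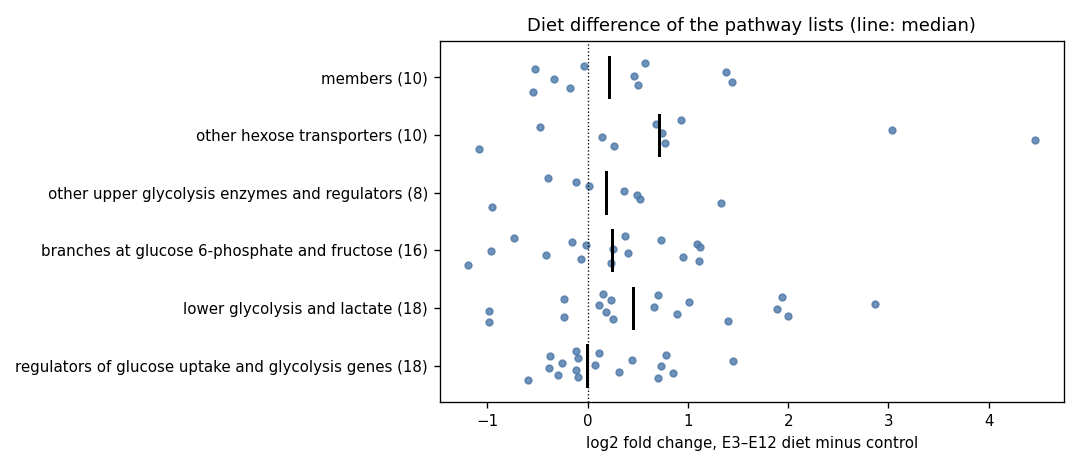
Log2 fold changes (E3–E12 diet minus control) of the genes tested in each pathway list and of the members, one point a gene, with the number of genes in brackets and a black line at the median. The medians run from −0.01 for the regulators to 0.71 for the other hexose transporters, and the point farthest to the right is Rsc1a1, which was listed at 0 in every control.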

How the data were processed

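The deposited table holds normalised counts per Ensembl gene for 6 libraries, a signal that the authors made from their aligned and counted reads. Its values are not whole, and reads could not be recovered from them. Per the labels, the authors used FastQC, STAR, featureCounts and DESeq2 on GRCm38, with versions not given in the sources used here. The name of the table mentions surrogate variables, and how these entered the values is not stated. The labels describe laser microdissection and a Qiagen kit, whereas the methods of the study describe CD11b magnetic sorting and amplified RNA. Whether counting used strand is not stated, so antisense and overlapping genes (Hk1os, Pitrm1 beside Pfkp) are uncertain.

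The main test was limma 3.58.1 (R 4.3.3) on log2(normalised count + 1) for genes with a mean of at least 10, two-sided, without a trend in the variance prior, with Benjamini-Hochberg adjustment and a threshold of 0.1. A count model was not used because the values are not counts. A fold change on this scale understates that of low genes. Shares were compared with the two-sided exact permutation test over 20 relabellings. Lengths were those of the longest coding transcript in GENCODE, and 26507 of 26789 identifiers matched a symbol. Sequence shared between genes was the percent of 50-base windows of a gene's transcripts also found, on either strand, in another gene. Genes named were the 10 members, genes of the pathway lists with an unadjusted p under 0.05 or in the glycolysis list of the study, and the 3 genes nearest in profile to Slc2a1 and to Slc2a5. Markers named for a library and the genes of the last part were named after their values were seen. The members and lists were chosen with earlier results of these data known. The tests were checked on simulated data. For limma the planted changes were far larger than those of the members, so the check does not cover differences of their size. Total counts of reads before normalisation are unknown, so no counting interval is given.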

Additional observations from a re-analysis of the deposited data

How the results depend on the processing

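No gene passed the adjusted p of 0.1 by limma under any alternative for scaling, pseudocount, filter, variance model, block or left-out library. Genes at an unadjusted p under 0.05 numbered 327 (171 higher and 156 lower), 491 under quantile normalisation (197 higher and 294 lower), 486 of 26789 without a filter, and 276 to 539 when single libraries were left out. None of the 10 members was among them under any of these. Without control 1 the count was 539, and the cause was not tested. The median of all genes moved from 0.09 to 0.20 with equal totals.

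Members changed sign as follows, and the cause was not tested. Hk1 was 0.081 with equal totals. Relative to the microglia markers Slc2a3 was 0.10 and Hk1 0.23. Relative to the endothelial markers Gpi1 was −0.60, Pfkl −0.65 and Pfkp −0.54. Control 2 was the highest library for each of these on that scale, at 4.28, 1.83 and 1.89, so these signs lean on that library. Both sets of values relative to markers and the lengths of all exons were added after seeing the data. Leaving out single libraries gave ranges of −0.73 to 0.19 for Slc2a3, −0.75 to 0.24 for Slc2a5, −0.49 to 0.30 for Hk1, −1.33 to 0.33 for Hk2, −1.12 to 0.084 for Hk3 and −0.56 to 2.59 for Pfkm, while Slc2a1 ranged from 0.41 to 1.94. The positive values of Slc2a5, Hk2 and Hk3 came without E3–E12 diet 1 and the negative one of Pfkm without control 2, whereas Slc2a3 and Hk1 were above 0 without control 1 or control 3, Slc2a3 also without E3–E12 diet 3 and Hk1 also without E3–E12 diet 2. The median over the members ranged from −0.15, without control 2, to 0.36.

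Whether libraries with the same replicate number were handled together is not stated, and these values cannot settle it. The correlations of same-numbered libraries were 0.26, 0.03 and 0.14, and the main test took the groups as unpaired. Each E3–E12 diet library correlated best with the control of its own number, as did controls 1 and 3, but control 2 correlated best with E3–E12 diet 3 (0.09 against 0.03). With the replicate block 0 genes passed the adjusted p, 468 had an unadjusted p under 0.05, and the median over the members was 0.21. A sign-flip test over 3 pairs cannot go below 0.25, and the block changed no other call.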

Other observations

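Hk2 followed no cell type list, but its values followed those of Txnip, a binding partner of thioredoxin that restrains glucose uptake. This pair was chosen after the values were seen. Txnip had 1594, 965 and 4316 normalised counts in controls 1, 2 and 3 and 413, 5747 and 2276 in E3–E12 diet libraries 1, 2 and 3. As for Hk2, E3–E12 diet 2 was the highest library and E3–E12 diet 1 the lowest. The root mean square difference of the 2 centred profiles was 0.36, and 11 of 18006 genes (0.0611%) were closer to Hk2.

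Among the branch genes, Gyg, the primer of glycogen synthesis, and Ugp2, which makes UDP-glucose for it, had groups that did not overlap, in opposite directions, and neither passed the test. They too were named after their values were seen. Gyg had 287, 272 and 404 normalised counts in controls and 559.8, 779.9 and 520.0 in E3–E12 diet libraries, a log2 fold change of 0.95 ± 0.55 (SE, n = 3). Ugp2 had 208, 242 and 319 in controls and 128, 135 and 201 in E3–E12 diet libraries, a log2 fold change of −0.73 ± 0.56 (SE, n = 3). In the lower pathway Aldoa and Ldhb were likewise named after their values were seen. Aldoa, the main aldolase of most tissues, had 615, 458 and 749 normalised counts in controls and 903, 865 and 1069.9 in E3–E12 diet libraries, also without overlap (0.66 ± 0.54). Ldhb, a lactate dehydrogenase subunit, had 573, 1006 and 999 in controls and 1086, 1042 and 2177 in E3–E12 diet libraries (0.70 ± 0.62). Over all genes, 2.99% lay entirely above the controls and 2.91% entirely below.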
